A study of Mus musculus with 6 samples.

Results

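A set of 7 mouse genes that were low in nuclei of formalin-fixed, paraffin-embedded (FFPE) brain is described here: 2900055J20Rik, Kctd16, Gm28928, Gm27000, Colgalt1, Gba2 and Rtkn. These are 7 of 19006 mouse genes in the SCRB-seq table, 21987 in the SMART-Seq2 bulk table, 23295 in the plate nuclei table and 19905 in the droplet table, and all 7 are listed in each of them. Measured values chose them. 2900055J20Rik, Gm28928 and Kctd16 had the largest falls from frozen to FFPE wells in SCRB-seq, and Gm27000 had the largest fall in the SMART-Seq2 bulk wells. How Colgalt1, Gba2 and Rtkn were chosen is not stated, and they are treated as chosen from the plate nuclei: there they took places 7, 27 and 22 by size of fall among the 3402 genes with a mean of at least 100 CPM (counts scaled to a common library total) in FFPE or in frozen nuclei. The comparison that chose a gene is therefore given for it as a description, with no test. The data do not bear out near absence from FFPE material for every gene: Rtkn was higher in FFPE than in frozen SCRB-seq wells, and Gm28928 and Kctd16 were counted in many FFPE droplet nuclei. The 2 sets of FFPE plate nuclei differed for Gm27000, with means of 43.6 and 4.73 CPM against 48.6 CPM in frozen nuclei.

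The study tests nucleus RNA-seq on archived tissue, with 6 GEO samples from C57BL/6J mice aged 8 to 12 weeks. Every sample is labelled cortex, and nuclei came from 50 µm scrolls of FFPE brain. Paraffin was removed in 3 ways: by heated mineral oil, by heated xylene, or by xylene without heating, called room-temperature xylene here. SCRB-seq, which counts transcript 3′ ends from barcoded pools, has 64 wells, 16 for each method and 16 of frozen nuclei, of which 8 hold 10 nuclei and 8 hold 100 nuclei. SMART-Seq2, which reads whole transcripts, has 12 bulk wells with 10, 50 or 100 nuclei of each treatment, and plates of single nuclei: 143 FFPE and 137 frozen nuclei in a table of the whole series, and 98 FFPE nuclei of batch 1. The droplet sample holds 7031 FFPE nuclei and no frozen ones. The labels describe no frozen sample. Frozen wells and nuclei are known from the authors' annotation tables only, and neither the animals, their sex nor the handling of the frozen tissue is given for them. All wells of an assay belong to 1 GEO sample, so p-values measure the spread between wells, which may be technical.

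Kctd16 encodes an auxiliary subunit of the GABA-B receptor, the G-protein-coupled receptor through which the transmitter GABA slows neurons. KCTD proteins bind the receptor's GABBR2 subunit and shape the speed and decay of its signal. Colgalt1 encodes a galactosyltransferase of the endoplasmic reticulum that adds galactose to hydroxylysine in collagen. Gba2 encodes the non-lysosomal glucosylceramidase, which cleaves glucose from glucosylceramide outside lysosomes. Rtkn encodes rhotekin, a scaffold protein. Gm28928 and Gm27000 are annotated as long intergenic noncoding RNAs, and no function is given for them here. Nuclei hold unspliced transcripts and retained noncoding RNA, so genes of long span and nuclear noncoding RNAs make up much of what nucleus RNA-seq counts. Formalin crosslinks RNA to protein and, with storage, leaves it fragmented and chemically modified.

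Gm27000 is a near copy of Meg3, the imprinted noncoding RNA at chr12:109541001-109571726 (plus strand) that is abundant in neuronal nuclei. All 842 bases of Gm27000 aligned to the Meg3-207 transcript with 1 mismatch, an identity of 99.881%. The match crosses 3 exons of Meg3 that form 1 unbroken exon in Gm27000. The substitution is A162G, with the base of Gm27000 first, the position counted from 1 at the 5′ end of both transcripts, and the base of Meg3 last. The 81 bases around it are shown 5′ to 3′, since they hold the one base by which a read could be told apart, which is in capitals. Gm27000 lies here at chrX:88760111-88760191 (minus) and Meg3 at chr12:109543726-109543806 (plus), both on GRCm38.
Gm27000: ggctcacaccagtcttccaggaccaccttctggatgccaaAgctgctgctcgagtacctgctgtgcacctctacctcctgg
Meg3: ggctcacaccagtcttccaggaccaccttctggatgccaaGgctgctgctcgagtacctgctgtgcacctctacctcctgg
The longest run without a mismatch is 680 bases. Both loci also hold a copy of the microRNA miR-1906, Mir1906-1 at chr12:109544588-109544609 (plus) and Mir1906-2 at chrX:88759485-88759506 (minus). Their mature sequences, from RefSeq, are identical and are shown with the seed, bases 2 to 8, in capitals.
miR-1906: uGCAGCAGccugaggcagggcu
The sources used here do not say how reads were divided between Gm27000 and Meg3, so every count of Gm27000 is uncertain.

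On mm10 (GRCm38, GENCODE M21), Kctd16 lies at chr18:40256962-40531630 on the plus strand and spans 275 kb. RefSeq lists 2900055J20Rik as a synonym of Kctd16, while GENCODE M21 does not hold it, so the authors' tables count as 2 genes what RefSeq names as 1. Gm28928 lies at chr1:124505757-124846039 on the minus strand, spans 340 kb and has 3 exons. Gm27000 is a single exon of 842 bases at chrX:88759471-88760312 on the minus strand. Colgalt1 (chr8:71610998-71624911, plus), Gba2 (chr4:43566928-43578873, minus) and Rtkn (chr6:83135463-83152579, plus) are protein-coding genes of 13.9, 11.9 and 17.1 kb. Each of these 3 overlaps a gene on the opposite strand: Unc13a by 495 bases, Creb3 and Rgp1 by 133 and 159 bases, and Wdr54 by 3219 bases. The sources used here do not say whether the counting used strand, so counts in those overlaps cannot be assigned to either gene.

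Library depth and cell makeup differed between the groups. SCRB-seq wells held 7512 to 167144 mouse counts and SMART-Seq2 bulk wells 270363 to 942966 counts. Wells of 1 treatment and nuclei number share 1 library index in SCRB-seq, which gives 8 pools, and pool and group cannot be told apart. Of 9 markers of cerebellar granule neurons, 8 are in the bulk tables, and their summed level was 0 to 101 CPM in frozen SCRB-seq wells against 307 to 6115 CPM in FFPE wells, with Gabra6 and Cbln3 at 0 in every frozen well. In SMART-Seq2 bulk wells the same sum was 48.1 to 144 against 1511 to 3927 CPM, with Gabra6, Cbln1, Cbln3, Zic1 and Pax6 at 0 in the frozen wells. The 10 markers of excitatory cortical neurons summed to 1220 to 2222 CPM in frozen and 95.8 to 1347 CPM in FFPE SCRB-seq wells. Genes of the Y chromosome (4 listed) summed to 263 to 333 CPM in frozen and 0 to 2.03 CPM in FFPE SMART-Seq2 bulk wells, and to 0 to 681 and 0 to 174 CPM in SCRB-seq wells, which overlap. In FFPE droplet nuclei they came to 2.96 UMIs per 10000. The labelled cortex thus carried markers of cerebellum in FFPE material, and tissue region, cell makeup, sex and fixation cannot be told apart in any FFPE and frozen comparison below. Fewer cells of a type and less RNA per cell cannot be told apart either.

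In SCRB-seq the 3 genes that this comparison chose were counted in every frozen well and in 10 (2900055J20Rik), 24 (Kctd16) and 25 (Gm28928) of 48 FFPE wells. 2900055J20Rik ranged from 294 to 1049 CPM over 16 frozen wells (median 637, mean 678 ± 206, SD). In the 48 FFPE wells it had a mean of 5.68 CPM and a highest value of 102. Kctd16 ranged from 238 to 1421 CPM in frozen wells (median 802) and from 0 to 168 CPM in FFPE wells (median 3.395, mean 24.2). For both genes every FFPE well lay below the lowest frozen well. Gm28928 ranged from 307 to 1296 CPM in frozen wells (median 919) and from 0 to 657 CPM in FFPE wells (median 8.61, mean 33.6), and 47 of 48 FFPE wells lay below the lowest frozen well. Of the 1478 genes with enough counts to test, 1.69% had every FFPE well below the lowest frozen well, and 27.7% were lower in FFPE wells at an edgeR adjusted p under 0.05. Over all genes tested, 447 were higher and 410 lower in FFPE wells. Scaled by DESeq2's size factors, which moved the median log2 difference of all genes to -0.58, the split was 309 higher and 674 lower.

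**Figure D1:**
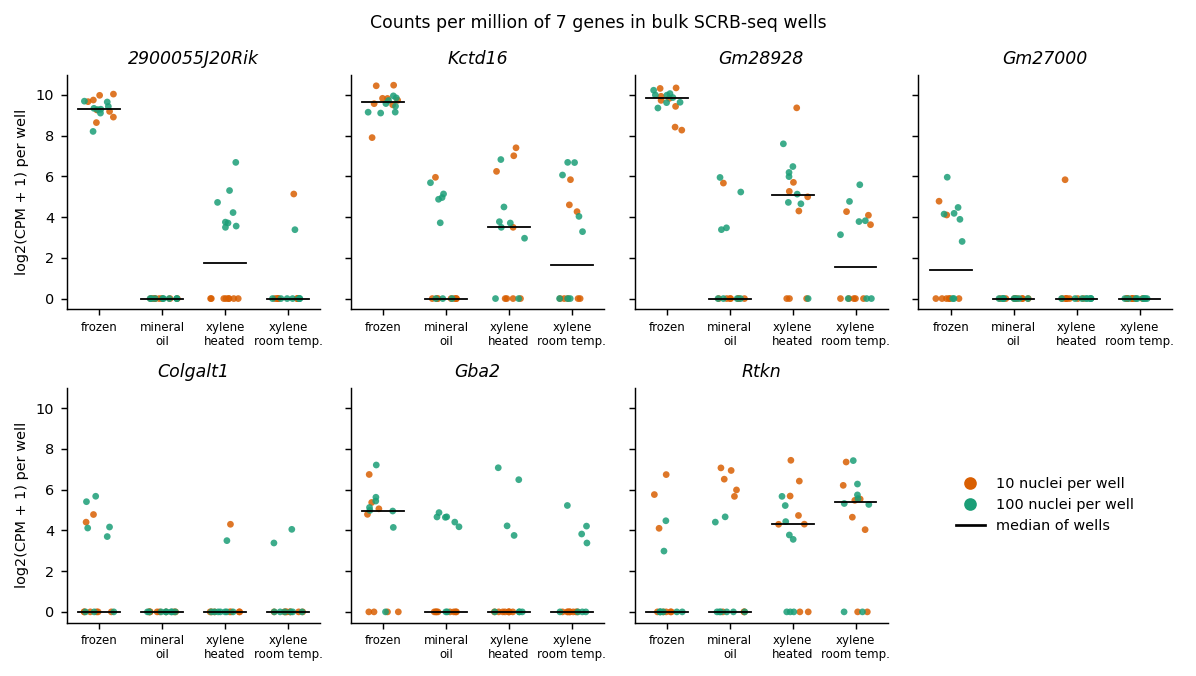
Level of each gene in 64 SCRB-seq wells as log2(CPM + 1), by treatment; points are wells, colours give the number of nuclei, and bars are medians. The frozen wells of 2900055J20Rik and Kctd16 lie above all 48 FFPE wells, while Rtkn has a mean of 37.3 CPM in FFPE and 12.7 CPM in frozen wells, which overlap.

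No difference between wells of 10 and 100 frozen nuclei passed the test for these genes. From 10 to 100 frozen nuclei the log2 difference was -0.06 (SE 0.52) for Kctd16, -0.00 (SE 0.41) for 2900055J20Rik and 0.38 (SE 0.52) for Gm28928. The call rate over all genes was 0.0398% of 2511, or 1 gene, with 187 genes at an unadjusted p under 0.05 and 2 genes called by DESeq2.

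Between the deparaffinization methods, edgeR called 2900055J20Rik and Gm28928 higher in heated xylene wells than in heated mineral oil wells. Some alternative fits given below did not pass. Each method has its own library pools, so method and pool cannot be told apart in these differences. The p-values measure the spread between wells. The choice of the genes used the mean of all FFPE wells, not the differences among the methods. In SCRB-seq no member passed the filter on low counts in the FFPE wells alone; these 3 genes passed it through the frozen wells, so each method difference is also given from a permutation test of mean CPM that uses no filter (9 tests, two-sided, 100000 resamples, p unadjusted). 2900055J20Rik had 0 counts in all 16 mineral oil wells, which allows up to 4.39 CPM over the group. It had 24 counts in 16 heated xylene wells and 4 counts in 16 room-temperature xylene wells. In heated xylene it was counted in every one of 8 wells of 100 nuclei (10.3 to 102 CPM, median 15.1) and in none of 8 wells of 10 nuclei. Pooled over wells, heated xylene stood at 21.3 CPM, or 4.85 times the mineral oil limit. Without the heated xylene well that held 15 of the 24 counts, it stood at 9.18 CPM, or 2.09 times that limit. These ratios leave out the counting error of the heated xylene counts, so they are not lower bounds of the fold. The fitted log2 difference was -3.28 (SE 0.77, edgeR adjusted p = 0.00167), a value that depends on the prior count since 1 group is at 0. In this contrast 15.6% of the 1478 genes were called in either direction. The means were 0 and 14.3 CPM (permutation p = 0.0025), and a fit of the FFPE wells alone with no filter gave -3.22 (edgeR adjusted p = 0.00110), where 18.8% of 18205 genes were called. DESeq2's Wald test gave -1.61 with an adjusted p of 0.0851, which does not pass. In the wells of 10 nuclei alone both groups were at 0 and no difference could be fitted.

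Gm28928 had a median of 32.4 CPM in heated xylene wells (0 to 657), 0 in mineral oil wells (0 to 60.6) and 3.89 in room-temperature xylene wells (0 to 47.1). The ranges overlap. Mineral oil minus heated xylene was -2.39 on the log2 scale (SE 0.59, edgeR adjusted p = 0.00253), and heated minus room-temperature xylene was 2.62 (SE 0.54, adjusted p = 0.000952), a contrast in which 5.89% of genes were called. The means were 10.4, 80.9 and 9.54 CPM in mineral oil, heated and room-temperature xylene (permutation p = 0.0065 and 0.00234). Fitted on the FFPE wells alone with no filter, the differences were -2.49 (edgeR adjusted p = 0.00658) and 2.61 (0.00327), the second in a contrast that called 15.9% of genes. A single heated xylene well of 10 nuclei, at 657 CPM, carried 35 of the 81 heated xylene counts. Without it the edgeR differences were -1.49 (adjusted p = 0.0425) and 1.71 (adjusted p = 0.0200), in a fit that Gm28928 entered through the frozen wells. The tests that use no frozen wells were not repeated without this well, so whether their results rest on it was not tested. In wells of 100 nuclei alone mineral oil minus heated xylene was -1.65 (edgeR adjusted p = 0.0568), which does not pass. Mineral oil wells were shallower than heated xylene wells (median 26385.5 against 67425.5 counts) and had lower summed oligodendrocyte markers (median 182 against 1982 CPM), and the part of these in the method differences was not tested.

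Between heated and room-temperature xylene, 2900055J20Rik lay at the threshold, at 1.79 (SE 0.58, edgeR adjusted p = 0.0499). The 2 tests that use no frozen wells did not pass: the permutation p was 0.0648, and the FFPE wells alone with no filter gave 1.76 (edgeR adjusted p = 0.0567). Without the heated xylene well that held 15 of its 24 counts, the difference was 1.04 and the adjusted p 0.298, so that call rests on 1 well. With DESeq2's size factors the edgeR adjusted p was 0.0582, and with DESeq2's Wald test it was 0.0547, and neither passes. In wells of 10 nuclei alone its sign turned, to -1.59, where all heated xylene wells were at 0 and 1 room-temperature xylene well held 3 counts. Kctd16, counted in 6, 10 and 8 of 16 wells of mineral oil, heated and room-temperature xylene, passed no contrast. Its edgeR difference was -1.01 for mineral oil against heated xylene (SE 0.61, adjusted p = 0.272), 0.39 for heated against room-temperature xylene (SE 0.53, 0.740) and -0.62 for mineral oil against room-temperature xylene (SE 0.61, 0.536). The permutation p of Kctd16 was 0.160, 0.537 and 0.311 in the same order. Mineral oil and room-temperature xylene did not differ past the threshold for 2900055J20Rik (-1.48, SE 0.72, edgeR adjusted p = 0.176) or Gm28928 (0.24, SE 0.67, 0.854), in a contrast that called 17.0% of genes. Here the permutation p was 0.484 for 2900055J20Rik and 0.886 for Gm28928.

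The other 4 genes were sparse in SCRB-seq and did not pass the filter on low counts, so they were tested by permuting the wells between FFPE and frozen (4 tests, two-sided, 100000 resamples, p unadjusted), chosen as a test with the data already in view. Gm27000 was chosen in another assay, and whether SCRB-seq values bore on the choice of the other 3 is not stated. Gm27000 had 13 counts in 8 of 16 frozen wells and 3 counts in 1 of 48 FFPE wells, a heated xylene well (mean 11.2 against 1.17 CPM, permutation p = 0.0055). Colgalt1 had 16 counts in 7 frozen wells and 5 counts in 4 FFPE wells (11.5 against 1.12 CPM, permutation p = 0.0004). Gba2 had 48 counts in 11 frozen wells and 39 counts in 14 FFPE wells (34.7 against 9.73 CPM, permutation p = 0.0089). Frozen and FFPE wells overlapped for each of these genes. In an edgeR fit of 19006 genes with no filter, which called 17.3% of genes lower in FFPE wells, the log2 differences were -2.28 for Gm27000 (adjusted p = 1.17e-05), -2.17 for Colgalt1 (2.72e-05) and -1.60 for Gba2 (0.0110).

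Rtkn went the other way. It had 10 counts in 5 of 16 frozen wells (0 to 106 CPM, mean 12.7) and 92 counts in 30 of 48 FFPE wells (0 to 173 CPM, mean 37.3, permutation p = 0.0363). The unfiltered edgeR fit gave 1.29 (SE 0.62, adjusted p = 0.115), which did not pass. Its means were 31.4, 31.3 and 49.2 CPM in mineral oil, heated and room-temperature xylene wells, with SDs of 46.4, 44.5 and 52.1 that exceed the differences between them.

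The number of nuclei per well, which is also a library pool, divided these 4 results. Within wells of 100 nuclei the permutation p was 8e-05 for Gm27000, 0.00144 for Colgalt1, 0.131 for Gba2 and 0.0438 for Rtkn. Within wells of 10 nuclei it was 0.589, 0.112, 0.00378 and 0.178 in the same order. No FFPE well of 10 nuclei held a count of Gba2, against 14 of 24 FFPE wells of 100 nuclei. At 0 to 18 counts per well, depth limits what can be seen of these genes.

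In the SMART-Seq2 bulk wells the 3 genes chosen in SCRB-seq were lower in FFPE wells as well. 2900055J20Rik had 76.3, 115 and 109 CPM in frozen wells of 10, 50 and 100 nuclei. It was at 0 in 8 of 9 FFPE wells and at 40.8 CPM in the heated xylene well of 50 nuclei. Its pooled frozen level was 51.5 times the limit of 3 counts in mineral oil and 47.6 times that limit in room-temperature xylene. These ratios leave out the counting error of the frozen counts. The means were 4.53 CPM in 9 FFPE and 100.1 CPM in 3 frozen wells (exact permutation p = 0.00909, two-sided, the smallest these wells can give, with the same p for Kctd16 and Gm28928 among 3 tests). The gene passed the filter only through the frozen wells, so its fitted log2 difference of -7.09 (SE 1.49) is given as a description. DESeq2's Wald test gave -6.68 with an adjusted p of 0.199, which does not pass.

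Gm28928 had 2915, 2645 and 2134 CPM in frozen wells of 10, 50 and 100 nuclei. It had 402, 351 and 288 CPM in heated xylene, 0, 21.3 and 1.35 CPM in mineral oil, and 0, 261 and 0 CPM in room-temperature xylene. All 9 FFPE wells lay below the frozen ones, and the heated xylene wells were the highest FFPE wells. FFPE minus frozen was -5.69 (SE 0.83, edgeR adjusted p = 0.000117), and all 17 alternative fits kept that call.

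Kctd16 had 1384, 1280 and 1359 CPM in frozen wells. FFPE values were widely spread, with 377, 52.0 and 10.8 CPM in mineral oil, 395, 156 and 104 CPM in heated xylene, and 916, 30.0 and 69.3 CPM in room-temperature xylene, for 10, 50 and 100 nuclei. In every method the well of 10 nuclei was the highest, and all FFPE wells lay below the frozen ones. FFPE minus frozen was -2.78 (SE 0.72, edgeR adjusted p = 0.0271). Leaving out any 1 of the 3 frozen wells lost the call, with differences of -2.68, -2.77 and -2.64 and adjusted p-values of 0.0981, 0.0609 and 0.0677.

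Gm27000, which this assay chose, had 462, 644 and 799 CPM in frozen wells of 10, 50 and 100 nuclei. Among FFPE wells it had 9.42 CPM in the mineral oil well of 100 nuclei, 1.06 and 5.76 CPM in the heated xylene wells of 10 and 100 nuclei, and 0 in the other 6. Colgalt1 had 94.3, 48.1 and 45.0 CPM in frozen wells and 0 to 54.8 CPM in FFPE wells, where all 3 wells of 10 nuclei were at 0 (-2.24, SE 1.24, edgeR adjusted p = 0.431). Gba2 had 169, 59.2 and 85.7 CPM in frozen wells and 0 to 107 CPM in FFPE wells (-2.76, SE 1.16, edgeR adjusted p = 0.239). Neither passed, and each overlapped between the groups in 1 FFPE well. Rtkn failed the filter: 1 of 3 frozen wells held it, at 17.1 CPM, against 210, 44.6 and 10.1 CPM in heated xylene, 4.08 CPM in 1 room-temperature xylene well and 0 in mineral oil.

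Of the 9092 genes tested, 2.64% were lower in FFPE wells at an adjusted p under 0.05, and 4.96% had every FFPE well below the lowest frozen well. Over all genes 132 were higher and 240 lower in FFPE wells, and scaling by library totals made the split 167 and 164. None of the 6 genes tested here passed a contrast between methods. The share of genes called by edgeR was 0.0440% between mineral oil and heated xylene, 0% between the 2 xylene methods and 0% between mineral oil and room-temperature xylene. In that order, 552, 398 and 655 genes had an unadjusted p under 0.05, and DESeq2 called 67, 2 and 52 genes. For Gm28928, mineral oil minus heated xylene was -5.72 (SE 1.37, edgeR adjusted p = 0.175). With the nuclei number as a block it was -7.03 (edgeR adjusted p = 0.0207).

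**Figure D2:**
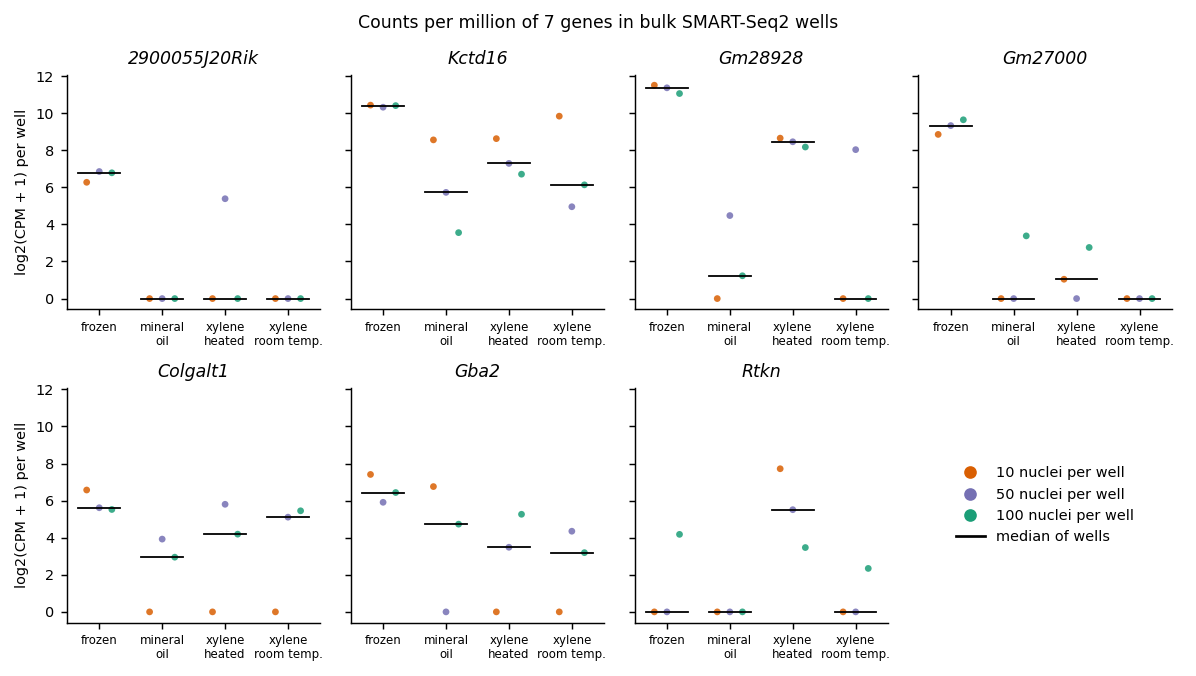
Level of each gene in 12 SMART-Seq2 bulk wells as log2(CPM + 1), by treatment; points are wells, colours give the number of nuclei, and bars are medians of 3 wells. The 3 heated xylene wells of Gm28928 (288 to 402 CPM) stand between the frozen wells and most other FFPE wells.

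In single nuclei on plates, which are 1 sample per group and so give values and no test, fewer FFPE than frozen nuclei had a count of each gene. Detection was lower in general: the median nucleus had 1635 genes counted in FFPE and 4382 in frozen material. Dpp10, the coding neighbour of Gm28928, was counted in 58.7% of FFPE and 83.2% of frozen nuclei. After thinning to 10000 counts its shares were 36.3 and 55.9%. 2900055J20Rik was counted in 4 of 143 FFPE nuclei (2.80%, exact binomial 95% interval 0.767 to 7.01%) and in 71 of 137 frozen nuclei (51.8%, 43.1 to 60.4%). Kctd16 was counted in 35.0% of FFPE (27.2 to 43.4%) and 86.9% of frozen nuclei (80.0 to 92.0%). Gm28928 was counted in 32.2% (24.6 to 40.5%) and 89.1% (82.6 to 93.7%). Each of Kctd16 and Gm28928 was thus in about 1 FFPE nucleus in 3, and 68 of 143 held at least 1 of them (47.6%), against 130 of 137 frozen nuclei (94.9%). In the FFPE nuclei of batch 1, which were deeper, 29 of 98 held at least 1 of them (29.6%).

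Colgalt1 was counted in 3 FFPE and 52 frozen nuclei (2.10 and 38.0%), Gba2 in 9 and 77 (6.29 and 56.2%), and Rtkn in 8 and 29 (5.59 and 21.2%). Gm27000 was counted in 20 FFPE and 72 frozen nuclei (13.99%, 8.76 to 20.8%, against 52.6%, 43.9 to 61.1%). The intervals cover counting error over the nuclei of 1 sample per group and test no difference between FFPE and frozen material. The values of Colgalt1, Gba2 and Rtkn are taken to be those that chose them. The frozen nuclei were deeper, with a median of 255329 counts against 47887. After each nucleus was thinned to 10000 counts, which left out 8 FFPE and 10 frozen nuclei, 2900055J20Rik stood at 0% of FFPE and 27.6% of frozen nuclei, Kctd16 at 20 and 70.1%, and Gm28928 at 14.1 and 74.8%. Gm27000 then stood at 10.4% (5.79 to 16.8%) and 23.6% (16.5 to 32.0%), which overlap. Colgalt1 stood at 0 and 14.2%, Gba2 at 2.22 and 29.1%, and Rtkn at 0.741 and 9.45%. For 2900055J20Rik the shares were 50.7 and 52.9% on the 2 frozen plates, and 1.45 and 4.05% on the 2 FFPE plates of these sets. FFPE plates were not all alike for other genes. Gm28928 was at 33.3 and 31.1% on these FFPE plates and at 14.3 and 15.7% on those of batch 1. Gm27000 was at 15.9 and 12.2%, and at 0 and 2.86% in batch 1.

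Mean CPM, with each nucleus weighted equally, gave another order. It was 0.218 in FFPE and 181 in frozen nuclei for Colgalt1, 2.12 and 274 for Gba2, and 0.788 and 174 for Rtkn. For 2900055J20Rik it was 0.330 and 122 CPM, for Gm28928 72.02 and 1102, and for Kctd16 103 and 821. Gm27000 stood at 43.6 and 48.6 CPM in these sets, with up to 1456 CPM in 1 FFPE nucleus, but at 4.73 CPM in the FFPE nuclei of batch 1. Of the 3402 genes with a mean of at least 100 CPM in either arm, 15.0% were at least 4-fold lower in FFPE nuclei, and all members but Gm27000, which is under that level, were among them. Since earlier values chose members, nothing is read from that count.

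The frozen levels of the 3 coding genes chosen on plates rest on few nuclei. The 5 nuclei with the most counts held 95.3% of the frozen counts of Colgalt1, 97.4% of Rtkn and 85.3% of Gba2. For Kctd16 and Gm28928 the same share was 41.5 and 43.3%. The median frozen nucleus had 0 CPM of Colgalt1 and Rtkn and 5.38 CPM of Gba2, against 228 CPM of Kctd16 and 273 CPM of Gm28928. Granule neuron markers summed to a mean of 1572 CPM in FFPE and 80.8 CPM in frozen nuclei, and their part in these differences was not tested.

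A second set of FFPE nuclei, the 98 of batch 1, had low shares as well, at a median depth of 180584 counts. 2900055J20Rik was counted in 1 nucleus, Kctd16 in 19, Gm28928 in 15, Gm27000 in 2, Colgalt1 in 3, Gba2 in 6 and Rtkn in 5. Where Colgalt1, Gba2 and Rtkn were counted there, they could be abundant: their mean CPM was 17.6, 26.5 and 66.0, against 0.218, 2.12 and 0.788 in the other FFPE nuclei. Single nuclei reached 1368, 1077 and 2649 CPM. Gm27000 went the other way, with a mean of 4.73 CPM in batch 1 against 43.6 in the other FFPE nuclei. Of the 143 FFPE nuclei, 134 are those of batch 2, and the other 9 were deeper (102136 to 4973791 counts). Without those 9, Colgalt1 was counted in 0 of 134 nuclei and 2900055J20Rik in 1.

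**Figure D3:**
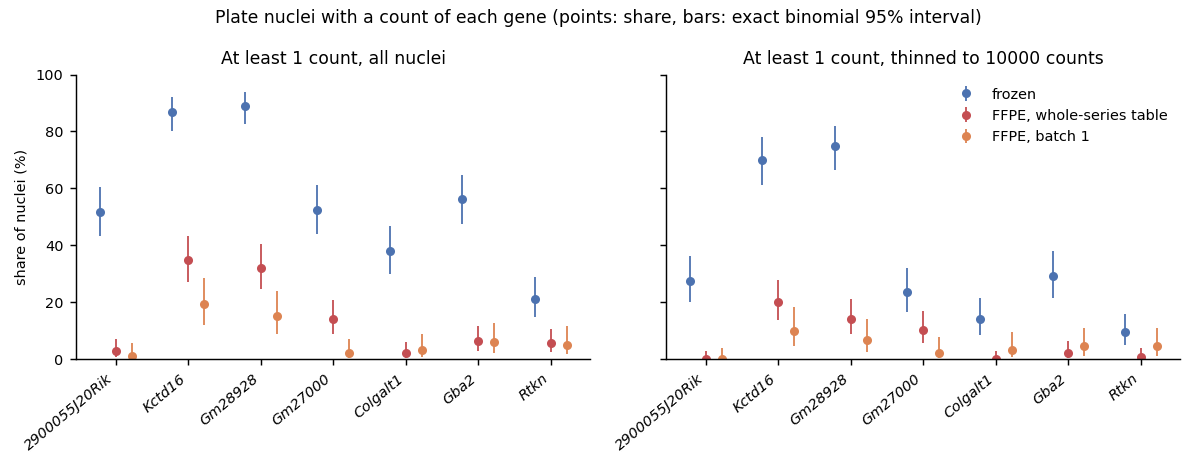
Share of plate nuclei with at least 1 count of each gene (%), before and after thinning to 10000 counts; points are shares in frozen nuclei, FFPE nuclei of the whole-series table and FFPE nuclei of batch 1, and bars are exact binomial 95% intervals. Frozen shares lie above both FFPE sets for all genes before thinning, and after it the intervals of Gm27000 overlap in FFPE and frozen nuclei, as do those of Colgalt1 and Rtkn in batch 1 and frozen nuclei.

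The 2 gene pairs that share sequence or locus name were compared by their counts summed over the wells or nuclei of a group. In frozen plate nuclei 69 of the 71 nuclei with 2900055J20Rik also had Kctd16. For every 100 counts of Kctd16 there were 81.5 counts of 2900055J20Rik in frozen SCRB-seq wells (exact 95% interval 73.7 to 90.1) and 30.4 in FFPE wells (19.2 to 46.9). Single frozen wells had 29.8 to 244 (median 83.4), and the 24 FFPE wells of 48 with a count of Kctd16 had 0 to 1500 (median 0). The SMART-Seq2 bulk wells had 6.78 (5.71 to 8.00) and 2.48 (1.69 to 3.52), and the plate nuclei 14.1 (13.7 to 14.4) and 3.32 (2.56 to 4.23). The pooled ratio was thus lower in FFPE material in each of these 3 data sets, but single libraries carry the FFPE counts of 2900055J20Rik: 15 of 28 in 1 SCRB-seq well, 32 of 32 in 1 SMART-Seq2 well and 92.5% in 1 plate nucleus. Heated xylene wells of 100 nuclei went the other way, with 24 counts of 2900055J20Rik to 15 of Kctd16, or 160 per 100. FFPE droplet nuclei had 5.08 (3.84 to 6.60), between the frozen and FFPE values of SMART-Seq2 bulk wells and below both SCRB-seq values. Both SCRB-seq values belong to genes chosen there.

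Every plate nucleus with a count of Gm27000 also had Meg3: 72 of 72 frozen, 20 of 20 FFPE and 2 of 2 batch 1 nuclei. Meg3 was in 98.5, 93.0 and 78.6% of all nuclei of these sets, so most nuclei had Meg3 whether or not they had Gm27000. Meg3 itself was lower in FFPE bulk wells, at 3694 against 12394 CPM in SCRB-seq (-1.81, SE 0.21, edgeR adjusted p = 2.07e-11) and 3469 against 10405 CPM in SMART-Seq2 (-1.85, SE 0.20, 1.53e-06). Per 100 counts of Meg3, SMART-Seq2 bulk wells had 6.15 counts of Gm27000 in frozen material (5.76 to 6.57) and 0.0590 in FFPE (0.0305 to 0.103). SCRB-seq wells had 0.0937 (0.0499 to 0.160) and 0.0233 (0.00481 to 0.0682), whose intervals overlap. Plate nuclei had 0.922 in frozen (0.893 to 0.9504), 1.18 in FFPE (1.09 to 1.27) and 0.292 in batch 1 FFPE material (0.244 to 0.347), so the FFPE sets lay on either side of the frozen one. Within the first FFPE set the ratio was 2.47 in the 134 nuclei of batch 2 and 0.394 in the 9 deeper nuclei.

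**Figure D4:**
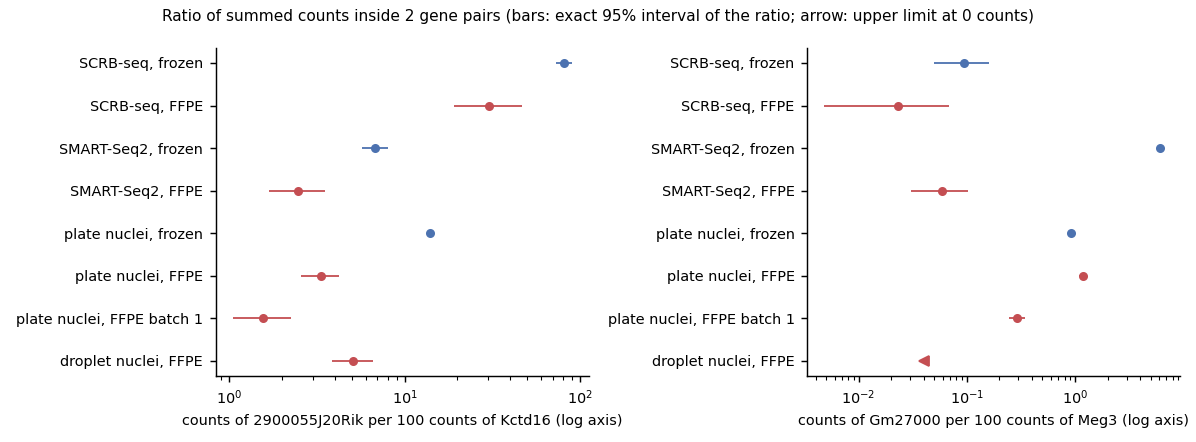
Counts of 2900055J20Rik per 100 counts of Kctd16, and of Gm27000 per 100 counts of Meg3, on log axes, by assay and material; points are ratios of summed counts, bars exact 95% intervals, and the arrow the upper limit at 0 counts. The first pooled ratio is lower in FFPE than in frozen material in each of 3 assays, and the second is 6.15 against 0.0590 in SMART-Seq2 bulk wells, while in plate nuclei 1 FFPE set (1.18) lies above and the other (0.292) below the frozen 0.922.

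In droplets, where transcripts were counted by unique molecular identifier (UMI) at a median of 325 UMIs per nucleus, the members ranged from 0 to 10.7 UMIs per 10000. Gm28928 was counted in 1527 of 7031 nuclei (21.7%, exact binomial 95% interval 20.8 to 22.7%) and Kctd16 in 902 (12.8%, 12.1 to 13.6%). Their levels were 10.7 (10.3 to 11.1) and 4.46 (4.21 to 4.72) UMIs per 10000. These 2 genes are thus well counted in FFPE nuclei, and Dpp10, the coding neighbour of Gm28928, reached 7.59. No frozen droplet nuclei are at hand to set beside them. No doublet caller was run here, and the sources used do not say whether doublets were removed.

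Colgalt1 (95 nuclei, 0.372 UMIs per 10000), Rtkn (76, 0.292), Gba2 (61, 0.238) and 2900055J20Rik (59, 0.226) were each in about 1% of nuclei. Gm27000 had 0 UMIs, which allows a share of nuclei with a UMI of up to 0.0427%, while Meg3 had 9252 UMIs in 62.1% of nuclei.

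Gm28928 differed between the 12 classes that the authors' annotation gives. It was highest in the excitatory class ExNeuron1, at 19.3 UMIs per 10000 (18.4 to 20.3) in 33.4% of 2121 nuclei, and next in ExNeuron5, at 13.1 (11.3 to 15.2). Among non-neuronal classes, endothelial nuclei had 4.24 (2.72 to 6.31) in 10.9% of nuclei and microglia 4.78 (2.61 to 8.02), at median depths of 301.5 and 285 UMIs against 331 in ExNeuron1. Astrocytes had 8.71 (7.56 to 9.996) in 19.6% of nuclei and oligodendrocytes 8.73 (7.07 to 10.7) in 19.8%. The intervals of ExNeuron1 and ExNeuron5 lay above those of these 4 classes. The part of free RNA in these levels was not tested. ExNeuron3, ExNeuron4 and ExNeuron6, at 5.003, 5.55 and 4.68, lay below astrocytes and overlapped endothelial nuclei.

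Kctd16 was highest in ExNeuron1 (6.39, 5.86 to 6.96), ExNeuron5 (5.85, 4.62 to 7.30) and ExNeuron4 (5.75, 4.93 to 6.67), whose intervals overlap. It was lower in astrocytes (2.82, 2.18 to 3.59), counted in 9.46% of them against 18.5% of ExNeuron1 nuclei, and at 0 in 47 fibroblast nuclei, which allows up to 6.38% of nuclei with a UMI. Its intervals in endothelial nuclei (3.89, 2.44 to 5.89) and microglia (4.44, 2.36 to 7.59) rest on 22 and 13 UMIs and overlap that of ExNeuron1, while oligodendrocytes (3.13, 2.16 to 4.37) lay below ExNeuron1 as astrocytes did. ExNeuron4 and ExNeuron1 overlapped for Kctd16 and stood at 5.55 and 19.3 for Gm28928, so the genes did not follow each other across classes. Of 66 pairs of classes, the intervals did not overlap in 32 for Gm28928 and 27 for Kctd16. For Colgalt1, Gba2 and Rtkn they overlapped in all 66 pairs, so no class can be told from another, or from free RNA. For 2900055J20Rik 1 pair did not overlap, ExNeuron1 (32 UMIs, 0.387 per 10000) and astrocytes (1 UMI, 0.0427).

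**Figure D5:**
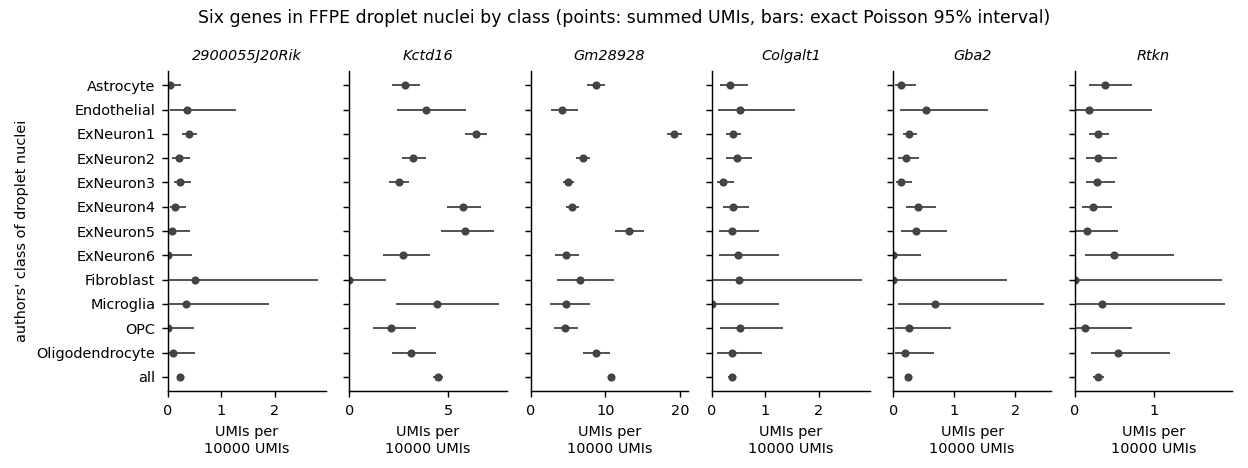
UMIs per 10000 UMIs of 6 genes in FFPE droplet nuclei by the authors' class; points are levels from summed UMIs, bars exact Poisson 95% intervals, and each panel has its own axis. Gm28928 is highest in ExNeuron1, at 19.3, the intervals of Kctd16 in ExNeuron1, ExNeuron4 and ExNeuron5 overlap, and the levels of the other 4 genes reach at most 0.683 in any class.

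The genes around the members did not all share their difference. Dpp10, a potassium channel subunit 460 kb from Gm28928 on the same strand, had 533 CPM in FFPE and 677 CPM in frozen SCRB-seq wells (-0.43, SE 0.27, edgeR adjusted p = 0.168), and -0.73 (SE 0.38, 0.383) in SMART-Seq2 bulk wells. Il1rapl1, a synaptic adhesion gene 644 kb from Gm27000, had 1156 and 1121 CPM in SCRB-seq (-0.04, SE 0.22, 0.879). Among genes that overlap members, Unc13a had 53.7 and 157 CPM, Wdr54 3.59 and 16.7 CPM, Creb3 13.7 and 18.6 CPM and Rgp1 13.7 and 6.41 CPM in FFPE and frozen SCRB-seq wells, all too low to test there.

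Other genes of the members' pathways moved in both directions. Of the GABA-B receptor and KCTD genes, 3 were tested in SCRB-seq. Apart from Kctd16, which this comparison chose, 1 of 2 was lower in FFPE wells, where 27.7% of all genes were: Gabbr2, the receptor subunit that KCTD proteins bind, with 202 against 529 CPM (-1.40, SE 0.28, edgeR adjusted p = 1.71e-05). Gabbr1 did not pass (0.16, SE 0.36). In SMART-Seq2, of 5 tested, Gabbr2 (-1.46) and Kctd16 were lower and Kctd8, another auxiliary subunit, was higher, with 520 against 43.9 CPM (3.26, SE 0.53, 0.000409). Scaled by library totals, Gabbr2 lost its call in SMART-Seq2.

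Of the collagen modification genes none could be tested in SCRB-seq, and 0 of 4 passed in SMART-Seq2, where the median log2 difference of the 3 genes other than Colgalt1 was -1.001 against -0.13 over all genes. Of the glucosylceramide genes, Ugt8a, the galactosyltransferase of myelin lipids (3.02), and Psap, the precursor of the saposins (1.25), were higher among 3 tested in SCRB-seq, where 30.2% of all genes were higher, and 0 of 14 passed in SMART-Seq2. The third, Sgms1, a sphingomyelin synthase, did not pass, but was called lower with DESeq2's size factors (-1.16), which put the median over all genes at -0.58. The 6 markers of oligodendrocytes, the cells that make myelin, summed to 97.05 to 770 CPM in frozen and 0 to 13860.5 CPM in FFPE SCRB-seq wells, and their part in the level of Ugt8a was not tested.

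A list of 13 long noncoding RNAs of brain nuclei, chosen with earlier results known, held both lower and higher genes in SCRB-seq. Of 8 tested in SCRB-seq, 5 were lower, where 27.7% of all genes were, with Gm26917 (-4.77), Miat (-3.33) and Malat1 (-2.96) the furthest, and Neat1 (2.36) and Gm42418 (0.99) were higher. The list's median was -1.60, against 0.00 over all genes. Of 9 tested in SMART-Seq2, 5 were lower, where 2.64% of all genes were, led by Miat (-4.69), Gm26917 (-4.01) and Snhg11 (-2.94), with a median of -1.85 against -0.13. With DESeq2's size factors Gm42418 lost its call in SCRB-seq, and with library totals Malat1 lost its call in SMART-Seq2 and Gm42418 was called higher there (1.14). Over every annotated long noncoding gene tested, 14 of 40 were lower and 20 higher in SCRB-seq, with a median of 0.75, and 13 of 188 were lower and 2 higher in SMART-Seq2, or 6.91% lower against 2.57% of protein-coding genes.

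The genes whose levels were most like those of the members over all 64 SCRB-seq wells were other genes that were low in FFPE material. For 2900055J20Rik these were Malat1 (Pearson r = 0.86 on log2(CPM + 1)), Gm28928 (0.83) and Gm26848 (0.81), for Kctd16 Gm26848 (0.80), Malat1 (0.79) and Pdzrn3 (0.76), and for Gm28928 2900055J20Rik (0.83), Ttc19 (0.76) and Malat1 (0.75). These wells fall into a frozen and an FFPE cluster. Over the 16 frozen wells alone the same pairs had r from -0.42 to 0.23. The likeness is thus that of the 2 clusters and was not seen among frozen wells.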

How the data were processed

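The tables hold counts per gene and well or nucleus, as deposited by the authors and not normalized; droplet counts are UMI counts. The submitters' processing notes list the builds hg19 and mm10. The sources used here do not name the aligner, the counter or how UMIs were collapsed. In the tables that were read, columns left unused numbered 0, and human genes in the SCRB-seq table were left out. A further batch of plate nuclei among the GEO samples was not read as a table of its own.

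The genes and gene lists were chosen with earlier results of these data known. Wells were grouped by the authors' annotation tables, and CPM used the mouse gene total. EdgeR 4.0.16 (R 4.3.3) with filterByExpr, TMM scaling and the quasi-likelihood test was fitted on all genes that passed the filter, with Benjamini-Hochberg adjustment and a threshold of 0.05. DESeq2 1.42.0, other scalings, no filter, subsets of wells, a nuclei number block and leaving out wells were alternatives. On simulated data, 97.9% of 4-fold changes were recovered in the SCRB-seq comparison (1478 genes) and 14.3% in SMART-Seq2 (9092 genes). False calls made up 3.88% of calls in SCRB-seq and 10.1% in SMART-Seq2, the second above the threshold of 0.05. With the spread scaled by 0.1, SMART-Seq2 recovered 80.4%, with 6.84% of calls false. Nuclei numbers only label wells, and no source says that they pair them.

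Plate nuclei were weighted equally, and thinning used 10000 counts with a fixed seed. Intervals are exact (95%) and cover counting error only, as do limits at 0 (3 counts). Gm27000 was aligned to GENCODE M21 transcripts with blastn 2.17.0. Statistics used Python 3.11.15 and scipy 1.17.1. Named genes are the 7 members, overlapping or neighbouring genes, the 3 genes most like each tested member, and up to 3 genes per list with the largest change; Neat1, Gm42418, Gabbr1 and the lost calls were named after their values were seen. The result of 1 further gene list is not reported here.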

Additional observations from a re-analysis of the deposited data

Results flagged for a closer look

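In 22 groups of 8 SCRB-seq wells, 8 had a highest well far from the others. With normally distributed values chance gives this in about 1 group in 20; the rate for sparse counts such as these was not measured. Among heated xylene wells of 100 nuclei, these were 2900055J20Rik at 102 CPM (next well 38.5), Kctd16 at 112 CPM (next 21.6) and Gm28928 at 192 CPM (next 88.3). Among heated xylene wells of 10 nuclei, Gm28928 stood at 657 CPM (next 51.1). Rtkn stood at 163 CPM (next 73.0) in a room-temperature xylene well of 10 nuclei and at 171 CPM (next 76.4) in one of 100 nuclei. Among frozen wells of 100 nuclei, Gba2 stood at 147 CPM (next 48.4) and Gm27000 at 61.1 CPM (next 21.2).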

How the results depend on the processing

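Of 558 alternative values of 38 tested changes of members, 538 kept their direction and side of the threshold, 10 lost the call, 9 gained one and 1 turned. That was 2900055J20Rik between heated and unheated xylene, at -1.59 in wells of 10 nuclei alone. It rests on 3 counts in 1 room-temperature xylene well, and the cause was not tested. Alternatives with both groups at 0 gave no value. Genes called between FFPE and frozen SCRB-seq wells (857) became 4785 with no filter. They became 478 in wells of 10 nuclei alone and 1119 in wells of 100 nuclei alone, where 783 and 2440 genes were tested. With frozen wells against mineral oil, room-temperature xylene or heated xylene alone, they became 316, 504 and 458. All these subsets hold fewer wells. Calls of members between methods (4) became 2 with DESeq2's Wald test and 2 in wells of 10 nuclei. The contrasts are mineral oil against heated xylene, heated against room-temperature xylene, and mineral oil against room-temperature xylene. In that order they called 230, 87 and 251 of 1478 genes in the main fit. The Wald test called 251, 134 and 260 of 1478, and wells of 10 nuclei 224, 38 and 228 of 783. In SMART-Seq2, 372 genes became 630 with DESeq2's Wald test and 162 to 469 when 1 well was left out, with 162, 187 and 174 without the frozen well of 10, 50 and 100 nuclei. Calls of members between methods there (0) became 3 with no filter, 1 in FFPE wells alone with no filter, 1 with the nuclei number as a block and 0 to 2 when 1 well was left out. Over all genes, these contrasts in the same order called 55, 16 and 35 of 17240 with no filter. FFPE wells alone with no filter gave 19, 5 and 16 of 16292. Leaving out 1 well gave at most 17 genes in a contrast, and the nuclei number block 10, 0 and 2 of 9092. With that block 2900055J20Rik and Gm28928 kept their SCRB-seq calls between methods, and 882 genes were called in SCRB-seq and 429 in SMART-Seq2 between FFPE and frozen wells. The batch 1 nuclei, the wells left out for 1 gene, the fits of FFPE wells alone, the gene pair ratios in subsets and the permutation tests were added after the data were seen. Counts under 20 per group limit Gm27000, Colgalt1 and Rtkn in frozen SCRB-seq wells.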

Other observations

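The authors' deposited table of genes counts nuclei in a larger droplet set: 8874 with Kctd16, 6650 with Gm28928, 3428 with 2900055J20Rik, 803 with Rtkn, 711 with Colgalt1, 654 with Gba2 and 6 with Gm27000, against 21063 with Meg3. There Kctd16 was in more nuclei than Gm28928, while in the 7031 annotated nuclei Gm28928 was in more. The 2 sets differed most for 2900055J20Rik, with 3428 nuclei there against 59 of the annotated ones. For Kctd16 these were 8874 and 902. The low droplet share of 2900055J20Rik and its ratio to Kctd16 thus hold for the annotated nuclei only.

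In frozen plate nuclei the 3 coding genes chosen there were often counted in the same nuclei: 25 of the 29 with Rtkn also had Colgalt1, 25 had Gba2, and 42 of the 52 with Colgalt1 also had Gba2. These nuclei share a library and its depth, so this is a description.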
